A study of Mus musculus with 11 samples.

Results

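The genes described here are the mouse families Zscan4, Tcstv, Usp17l and Tdpoz and the single gene Zfp352, which mark the 2-cell stage of the embryo and the rare cells of an embryonic stem cell culture that resemble it. Members were every row of the gene tables whose name starts with Zscan4, Tcstv, Usp17l or Tdpoz, or equals Zfp352. This rule found 22 of the 31518 rows of the mouse embryonic stem cell (mESC) table, namely 9 Zscan4, 2 Tcstv, 6 Usp17l and 4 Tdpoz rows and Zfp352, and 9 of the 29450 rows of the mouse embryonic fibroblast (MEF) table. The other 13 members are not listed in the MEF table. The families were proposed because they are low in Atxn7l3-/- mESCs, so the fold changes of their members between genotypes are given as a description, without a test.

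Poly(A) RNA was sequenced from 2 WT and 3 Atxn7l3-/- mESC lines and from 3 WT and 3 Atxn7l3-/- MEF cultures, 11 libraries in all, to ask how loss of ATXN7L3 alters transcript levels. ATXN7L3 is the adaptor that the histone deubiquitylating enzyme of the SAGA co-activator, and related enzymes, need in order to remove ubiquitin from histone H2B. The mESC lines came from separate blastocysts of heterozygous matings, on a mixed background of C57BL/6 and DBA/2, and were kept in medium with leukaemia inhibitory factor and the 2i inhibitors PD0325901 and CH99021, on feeder cells for the first passages only. The MEF cultures came from E10.5 embryos without head and gastrointestinal tract. WT lines and embryos came from the same kind of mating as the null ones. The null allele lacks the gene in every cell of the embryo from the start, so early and later effects of the loss cannot be told apart. Beyond these embryonic stages no age, and no sex or further treatment, is given for the cultures, and a further WT mESC dataset that the study set aside is not analysed here.

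In the 2-cell mouse embryo, the zygotic genome is switched on in a burst that includes these tandemly repeated families. A small, changing fraction of mESCs re-enters a similar state, in which Zscan4 proteins, DNA-binding proteins with a SCAN domain and zinc fingers, promote telomere lengthening by recombination. Tcstv proteins are known from the 2-cell stage and have also been linked to telomere length, Usp17l genes encode deubiquitylating enzymes, Tdpoz genes encode proteins with a TRAF-like and a BTB/POZ domain, and Zfp352 encodes a zinc finger protein expressed at the 2-cell stage. In such bulk libraries, fewer cells in the 2-cell-like state and less RNA per cell cannot be told apart.

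The library totals ran from 34515342 to 49602605 counts, so 3 counts, taken here as the floor of a single library, stood for 0.0563 to 0.0902 counts per 1000000 (CPM). CPM values are raw counts divided by library totals scaled with TMM, a factor that aligns the bulk of the genes. The targeted gene Atxn7l3 was at 222 and 223 CPM in the WT mESC libraries and at 3.91, 1.79 and 0.976 CPM in the Atxn7l3-/- mESC libraries, as their labels require. In MEFs, Atxn7l3 was at 79.7, 104 and 92.9 CPM in WT and still at 49.2, 49.5 and 67.3 CPM in the libraries labelled Atxn7l3-/-. The groups did not overlap, but the log2 fold change of -0.74 ± 0.21 (SE) in MEFs did not pass the test across all genes (adjusted p = 0.0715, edgeR), and the MEF libraries are therefore called by their labels throughout. The Y-linked genes Ddx3y, Eif2s3y and Uty were near 0 in Atxn7l3-/- mESC replicates 1 and 2, which had Xist at 58.3 and 51.0 CPM, and present in both WT lines and in Atxn7l3-/- replicate 3 (Ddx3y at 90.6 and 193 CPM in WT and at 3.46, 0.882 and 225 CPM in Atxn7l3-/- lines). The Y-linked Kdm5d was low in all 3 Atxn7l3-/- lines, at 0.872, 0.0238 and 0.686 CPM against 6.66 and 25.1 CPM in WT. Values without replicates 1 and 2 are given for every family sum and for some counts of called genes.

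The members lie in clusters on the mm10 genome, and all 22 have the coordinates of the GENCODE M21 annotation. The 9 Zscan4 genes lie on chr7:10794242-11614112, the 6 Usp17l genes on chr7:103249737-104862667, the 4 Tdpoz genes on chr3:93651542-93827117, the 2 Tcstv genes on chr13:119893388-120318178 and Zfp352 on chr4:90218820-90225702. Of the 22 genes, Zscan4a and Usp17le-ps are annotated as unprocessed pseudogenes, and the others, among them 3 Zscan4 genes with ps in their names, as protein coding.

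The near-identity of the copies limits what a single row can show. Of all 50-base windows in the annotated transcripts of a Zscan4 member, 9.88% to 51.6% (median 14.5%) occurred in no other gene, whereas 98.1% of the windows of the family as a whole occurred in no gene outside it. The unique share was 48.9% to 79.9% for Usp17l members, 68.6% and 85.0% for Tcstv3 and Tcstv1, 33.8% to 58.8% for Tdpoz members and 92.9% for Zfp352. Windows outside the family were rare for Usp17l, where 95.9% were of the family alone, but 85.6% of Tcstv and 51.7% of Tdpoz windows were of the family alone, and the rest were shared with genes under other names, such as Gm20767 for Tcstv and Gm4858 for Tdpoz. How reads that matched several copies were counted is not given in the sources used here, so sums over each family are the main values.

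**Figure D1:**
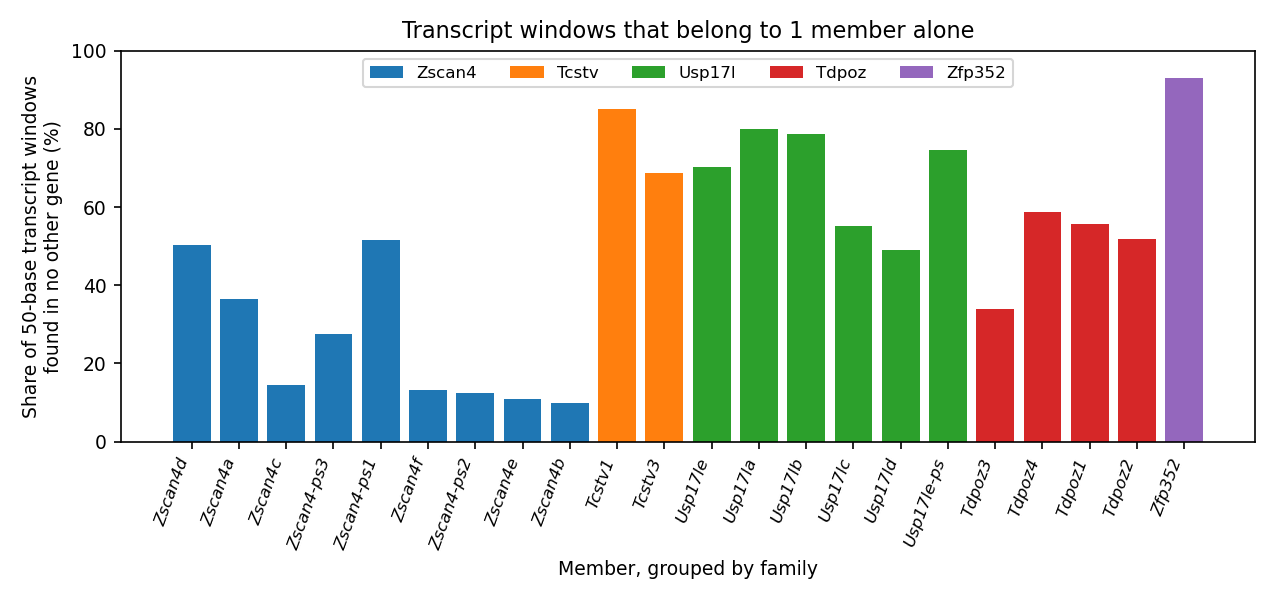
Share of 50-base transcript windows found in no other annotated gene, in percent (vertical axis, from 0), for each of the 22 members, coloured by family. Zscan4 members were the least distinct, with a median of 14.5%, and Zfp352 the most, with 92.9%.

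The same holds for the oligonucleotides with which the study measured Zscan4d by RT-qPCR. They are shown because each of them was found, without a mismatch, in annotated transcripts of all 9 Zscan4 genes and of no other gene, and the stretch between their outer ends was 97 bases long in each of the 9. The primer labelled reverse has the strand of the transcript, and the one labelled forward the opposite strand.
Zscan4d forward: atgattggcgaaagcgacgg
Zscan4d reverse: ttcagccacaagaccaacctg
A product of this pair can therefore come from any of the 9 genes.

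RefSeq promoter windows, from 250 bases before to 50 after the annotated start on GRCm38.p6, were at hand for 11 of the 22 members. The letters TATAAA, the core of the TATA box at which the transcription machinery assembles, were present in 7 of the 11 windows, all on the strand of the gene, against 13.6% of 32851 promoter windows of the same length searched on both strands. They occurred in Zscan4b, Zscan4c, Zscan4d, Zscan4f, Usp17lb, Usp17lc and Usp17ld and not in the windows of Usp17la, Tdpoz1, Tdpoz4 and Zfp352. Only these exact letters were searched, so windows without them can hold other forms of the TATA box. The 7 windows are of related Zscan4 and Usp17l copies and are not independent of each other. The letters TGCACAC, reported as a target of Zscan4 proteins, were in none of the 11 and in 4.40% of all windows. The 130 bases before the annotated start are shown for the 4 Zscan4 promoters, with TATAAA in capitals, to show how much of the sequence the copies share.
Zscan4b: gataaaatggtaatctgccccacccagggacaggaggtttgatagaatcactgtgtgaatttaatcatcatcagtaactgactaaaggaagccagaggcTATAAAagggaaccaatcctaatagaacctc
Zscan4c: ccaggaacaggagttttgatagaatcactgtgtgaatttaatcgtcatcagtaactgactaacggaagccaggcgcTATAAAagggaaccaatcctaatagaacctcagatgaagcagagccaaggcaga
Zscan4d: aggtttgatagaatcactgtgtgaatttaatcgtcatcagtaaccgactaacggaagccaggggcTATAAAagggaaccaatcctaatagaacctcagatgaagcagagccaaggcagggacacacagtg
Zscan4f: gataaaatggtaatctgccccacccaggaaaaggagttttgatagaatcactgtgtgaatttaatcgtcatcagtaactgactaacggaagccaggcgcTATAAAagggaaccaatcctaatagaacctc
These stretches lie at chr7:10905051-10905180 (minus strand), chr7:11005615-11005744 (plus strand), chr7:11166149-11166278 (minus strand) and chr7:11397785-11397914 (plus strand). The first T lay 31 bases before the annotated start in Zscan4b and Zscan4f, 54 before it in Zscan4c and 65 before it in Zscan4d, within similar surrounding letters. Over the whole windows, the 6 pairs of Zscan4 promoters were 77.5% to 95.7% identical.

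The Usp17l promoters are shown in the same way, since this family was almost as abundant as Zscan4.
Usp17la: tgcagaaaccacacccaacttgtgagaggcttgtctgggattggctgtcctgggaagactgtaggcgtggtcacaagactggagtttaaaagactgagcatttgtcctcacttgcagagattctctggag
Usp17lb: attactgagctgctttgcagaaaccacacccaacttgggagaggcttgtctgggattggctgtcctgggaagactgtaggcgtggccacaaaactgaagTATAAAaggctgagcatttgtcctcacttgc
Usp17lc: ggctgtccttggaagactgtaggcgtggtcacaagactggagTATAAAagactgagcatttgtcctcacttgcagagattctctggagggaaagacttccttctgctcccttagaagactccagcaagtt
Usp17ld: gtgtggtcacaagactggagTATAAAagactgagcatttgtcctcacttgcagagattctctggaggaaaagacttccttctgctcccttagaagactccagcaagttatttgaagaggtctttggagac
They lie at chr7:104856886-104857015 (plus strand), chr7:104842584-104842713 (minus strand), chr7:103416566-103416695 (plus strand) and chr7:103252506-103252635 (minus strand). TATAAA began 31 bases before the start in Usp17lb, 88 in Usp17lc and 110 in Usp17ld. The 6 pairs of Usp17l promoters were 54.4% to 83.5% identical over the whole windows, against 46.7% to 55.9% for the 42 pairs from different families and 47.8% for Tdpoz1 with Tdpoz4.

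All 5 families were readily counted in WT mESCs and nearly absent from Atxn7l3-/- mESCs. Summed over the 22 members, the WT libraries held 2007 and 1515 counts and the Atxn7l3-/- libraries 44, 24 and 19. In each family, every Atxn7l3-/- library was far below both WT libraries, and the mean of the Atxn7l3-/- libraries was between 1.54% of the WT mean for Zscan4 and 3.33% for Zfp352. Fold changes of the sums come from a fit in which the 5 sums took the place of the member rows.

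**Figure D2:**
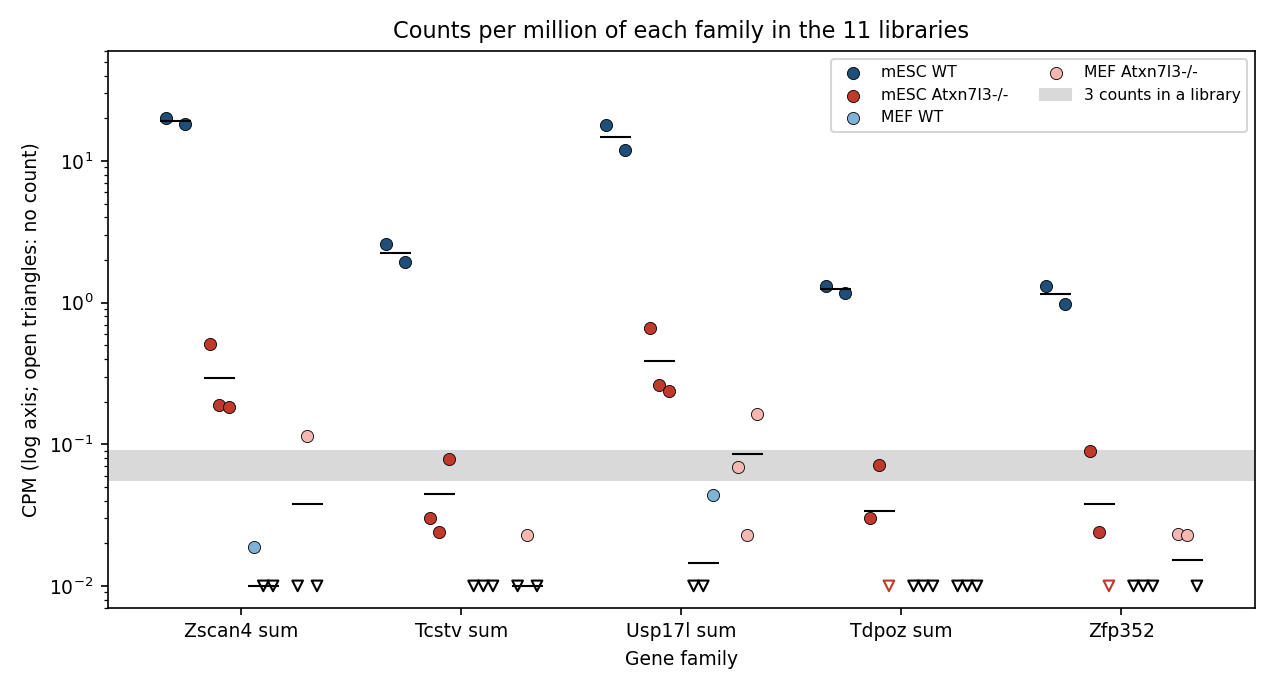
CPM of each family sum and of Zfp352 (log axis) in the 11 libraries, with a bar at the mean of each group where it is above 0, open triangles for libraries without a count and a grey band for 3 counts. For every family the 2 WT mESC libraries lie above the 3 Atxn7l3-/- mESC libraries, and the MEF libraries have at most 6 counts.

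The Zscan4 sum was 934 and 809 counts in the WT mESC lines and 17, 8 and 7 counts in the Atxn7l3-/- lines. As CPM, these were 19.2 ± 1.24 (SD, n = 2) and 0.296 ± 0.187 (SD, n = 3). The WT lines differed from each other by 1.1 times, and the Atxn7l3-/- lines were all under 1 CPM. The log2 fold change was -6.03 ± 0.54 (SE), and the ratio of the summed counts, scaled to library size, was 67.9 with an exact 95% counting interval of 47.9 to 99.6. Such intervals cover the counting error of counts pooled over lines and leave out the spread between lines. Reads without molecular identifiers are not independent molecules, so even the counting error can be understated.

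Zscan4d, the copy with the most counts, had 280 and 236 in WT and 3, 0 and 3 in Atxn7l3-/- mESCs. Zscan4a, annotated as a pseudogene, had 119 and 123 against 2, 0 and 0. Zscan4c, a copy often used in functional studies, had 126 and 68 against 1, 2 and 2. In all 3 genes the highest Atxn7l3-/- library was at or below 3 counts. The other 6 Zscan4 copies had 14 to 114 counts in a WT library and 0 to 5 in an Atxn7l3-/- library. Zscan4d held 29.98% and 29.17% of the Zscan4 counts of the WT lines, a share that read sharing between copies can move.

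The Usp17l sum was 831 and 526 counts in WT and 22, 11 and 9 in Atxn7l3-/- mESCs, or 14.9 ± 4.20 CPM (SD, n = 2) and 0.387 ± 0.238 CPM (SD, n = 3). The WT lines were further apart than for Zscan4, by 1.5 times in CPM, and still both far above all 3 Atxn7l3-/- lines. The log2 fold change was -5.27 ± 0.57 (SE), and the ratio of scaled counts 40.3 (29.6 to 56.2).

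Usp17le, the member of this deubiquitylating enzyme family with the most counts, had 273 and 175 counts in WT and 8, 4 and 5 in Atxn7l3-/- mESCs. Usp17la had 272 and 153 against 5, 2 and 1. Usp17lb had 133 and 108 against 6, 0 and 1. The value of 8 in Usp17le was the highest of any member in an Atxn7l3-/- mESC library. Usp17lc and Usp17ld had 35 to 108 counts in WT and 0 to 3 in Atxn7l3-/- lines, and the pseudogene Usp17le-ps had 1 count in all 5 libraries together.

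The Tcstv sum, of Tcstv1 and Tcstv3 alone, was 120 and 85 counts in WT and 1, 1 and 3 in Atxn7l3-/- mESCs. The CPM were 2.25 ± 0.462 (SD, n = 2) and 0.0443 ± 0.0303 (SD, n = 3), the latter below the floor of 3 counts in a library. The log2 fold change was -5.57 ± 0.66 (SE), and the ratio of scaled counts 51.1 (21.6 to 159). With every Atxn7l3-/- library at or under 3 counts, the size of this fold is uncertain. Tcstv1 had 68 and 37 counts in WT and 1 in each Atxn7l3-/- line. Tcstv3 had 52 and 48 counts in WT and 0, 0 and 2 in Atxn7l3-/- lines. Without Atxn7l3-/- replicates 1 and 2, the log2 fold change of the Tcstv sum was -4.77.

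The Tdpoz sum was 61 and 52 counts in WT and 1, 3 and 0 in Atxn7l3-/- mESCs, or 1.24 ± 0.0943 CPM (SD, n = 2) and 0.0339 ± 0.0359 CPM (SD, n = 3). The ratio of scaled counts was 35.2 (13.4 to 131) and the log2 fold change -5.04 ± 0.81 (SE). Here too every Atxn7l3-/- library was at or under the floor of 3 counts, and the size of the fold is uncertain. The WT lines had nearly the same sum but not the same copies. Tdpoz3 had 42 and 20 counts in WT and 0, 3 and 0 in Atxn7l3-/- lines, and Tdpoz4 had 18 and 9 against no count. Tdpoz1 had 1 and 13 counts in WT and 1, 0 and 0 in Atxn7l3-/- lines, so its groups touched. Tdpoz2, singled out after its values were seen, had 0 and 10 counts in WT and none in Atxn7l3-/- lines. Tdpoz1 and Tdpoz2 thus came almost wholly from WT replicate 2. RefSeq names 2 further rows of the mESC table as Tdpoz genes. Gm4858 (Tdpoz8) had 48 and 56 counts in WT and 0, 2 and 0 in Atxn7l3-/- lines, about as many as the 4 named rows together, and Gm9125 (Tdpoz9) had 0 and 2 against none.

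Zfp352, the only member of its kind and the one with the most unique sequence, had 61 and 43 counts in WT and 3, 1 and 0 in Atxn7l3-/- mESCs. The CPM were 1.14 ± 0.238 (SD, n = 2) and 0.0380 ± 0.0468 (SD, n = 3). The ratio of scaled counts was 32.4 (12.3 to 121), and the log2 fold change -4.87 ± 0.86 (SE). Every Atxn7l3-/- library was at or under the floor of 3 counts, so the size of this fold is uncertain. The groups did not overlap. Without Atxn7l3-/- replicates 1 and 2, which leaves a single Atxn7l3-/- library without a count, the fitted log2 fold changes of Zfp352 and of the Tdpoz sum were -8.62 and -8.74, values that depend on the prior count and are not bounds.

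Of the 22 members, 18 passed the filter on low counts, and Tdpoz1, Tdpoz2, Tdpoz4 and Usp17le-ps did not. A member could pass through its WT counts alone. The fitted log2 fold changes of the 18, a description of genes chosen for being low, ran from -7.37 for Zscan4-ps1 to -3.97 for Usp17ld, named for being the extremes. In 19 of the 22, every Atxn7l3-/- library was below both WT libraries by CPM, which was so for 25.1% of all genes tested. Nothing is read from that count, since the rule used the same contrast.

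**Figure D3:**
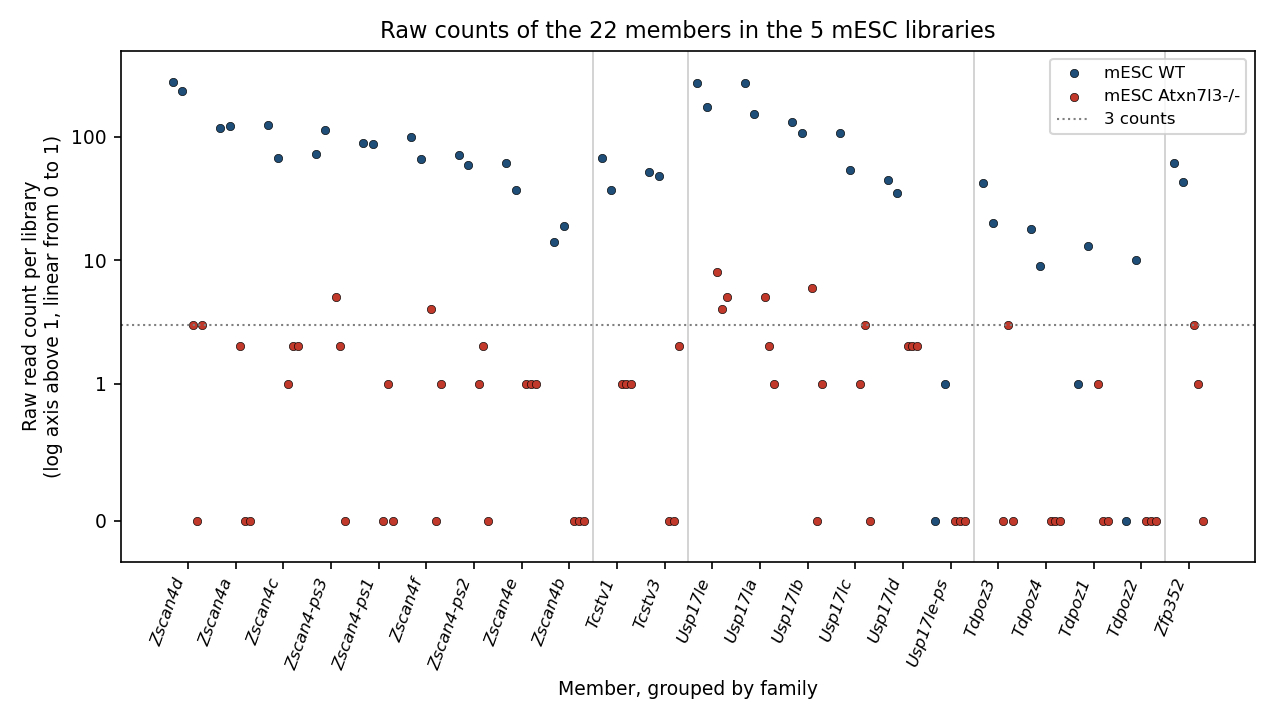
Raw counts of each of the 22 members in the 2 WT and 3 Atxn7l3-/- mESC libraries (log axis above 1, linear from 0 to 1), grouped by family, with a dotted line at 3 counts. Except for Usp17le-ps, Tdpoz1 and Tdpoz2, every WT point lies above every Atxn7l3-/- point of the same gene, and no Atxn7l3-/- point exceeds 8.

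Within WT mESCs, the members formed a continuous range of measured levels. By the authors' normalized reads per kb of transcript, a scale that allows for transcript length, the order began with Usp17le at 107 ± 29.1 and Zscan4d at 95.5 ± 7.78, followed by Usp17lb at 68.4 ± 7.36, Usp17la at 66.9 ± 24.1 and Tcstv3 at 65.4 ± 1.13 (SD, n = 2 each). The scale does not allow for the unique share of a transcript, 9.88% for Zscan4b, 50.4% for Zscan4d and 92.9% for Zfp352. Since the handling of shared reads is not given, the order can reflect that share as well as RNA level. Zfp352 was the sixteenth of the 22, at 22.2 ± 4.58, and Usp17le-ps the last, at 0.453 ± 0.640. Of the 21 pairs of neighbours in this order, 17 did not differ beyond the spread of the 2 WT lines. No family formed a block of its own: Usp17l, Zscan4 and Tcstv members were interleaved, and the 4 Tdpoz genes were all at or below 23.6 normalized reads per kb.

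MEFs had next to no counts of these families in either genotype. The 9 members listed summed to 1, 0 and 2 counts in the WT libraries and to 4, 8 and 6 counts in the libraries labelled Atxn7l3-/-. The Zscan4 sum was 1, 0 and 0 counts in WT MEFs and 0, 5 and 0 in MEFs labelled Atxn7l3-/-, the 5 counts being spread over 4 copies of replicate 2. The Usp17l sum was 0, 0 and 2 against 3, 1 and 6. Tcstv1 had a single count, in replicate 2 of the MEFs labelled Atxn7l3-/-, and Zfp352 1, 1 and 0 counts there and none in WT. No member passed the filter in MEFs, no library had more than 5 counts of any member, and no fold is given, since each WT library was at or under the floor of 3 counts. The groups overlapped in every single family, whereas the sums over all members did not overlap, at 0.0188, 0 and 0.0436 CPM in WT against 0.0923, 0.182 and 0.165 CPM. These sums rest on at most 8 counts per library, and 20.0% of all genes tested in MEFs were above every WT library in this way. Nothing is read from it.

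Between cell types, the WT libraries differed far more than replicates did. Every row of the MEF table holds at least 1 count over its 6 libraries, and rows not listed there were taken as 0. In CPM by the raw totals, without TMM, Zscan4 was at 19.5 over the WT mESC libraries and at 0.00764 over the WT MEF libraries, a ratio of 2546 (456 to 100637) that rests on 1 count in MEFs. Usp17l was at 15.2 and 0.0153 on the same scale, a ratio of 991 (274 to 8193) that rests on 2 counts. Tcstv and Zfp352 had no count in WT MEFs and were at least 99.8-fold and 50.6-fold higher in WT mESCs, at a floor of 3 counts over the 3 WT MEF libraries. The MEF cultures carried fibroblast markers at a summed 7305 to 42400 CPM in WT, and the mESC lines the 10 pluripotency markers at 5267 to 6456 CPM in all 5 libraries.

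The genes whose profile over the 5 mESC libraries was most like that of Zscan4 included the deleted gene itself. Likeness was the root mean square difference of log2 CPM, centred on its mean over the 5 libraries, among 13790 genes. For Zscan4 the nearest were Atxn7l3 (0.522), Crxos (0.547), a homeobox gene, and Gm10260 (0.590), against 2.97 for the median gene. Crxos was at 28.3 and 29.0 CPM in WT and at 0.782, 0.0953 and 0.343 CPM in Atxn7l3-/- mESCs. Gm10260 was at 174 and 324 CPM against 14.8, 2.98 and 2.22 CPM. For Usp17l the nearest were Gm11800 (0.402), Tmem92 (0.424), a transmembrane protein gene of the 2-cell programme, and Aqp9 (0.464), which encodes an aquaglyceroporin, against 2.63 for the median gene. Aqp9 was at 3.16 and 3.42 CPM in WT and at 0.241, 0.0238 and 0 CPM in Atxn7l3-/- mESCs. Gm11800 was at 8.40 and 2.60 CPM against 0.180, 0.0238 and 0.0528 CPM. All 6 were high in both WT and low in all 3 Atxn7l3-/- lines, as a profile near that of the families has to be. With 5 libraries in 2 groups, likeness mostly restates the difference between the groups.

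Other genes of the 2-cell programme were taken as a list of 57 without the rows that the name rule finds. Of 46 listed in the mESC table, 29 were tested and 16 (55.2%) were called lower in Atxn7l3-/- mESCs, against 3.88% of the 17800 genes tested, with a median log2 fold change of -4.21 against 0.04 for all genes. A listed gene could pass the filter through its WT counts alone, as B020031M17Rik did with 58 and 42 counts in WT and 0, 0 and 0 in Atxn7l3-/- lines. Sequence shared among the listed genes themselves was not examined, so the calls need not be independent of each other. The list, like those of activators and repressors, was chosen with earlier results of these data known, so its calls are no independent support. Of the 57, 7 are related to members by sequence, namely Gm9125, which RefSeq names Tdpoz9, and AF067061, B020031M17Rik, BC147527, Gm20767, Gm21761 and Gm21762, which share 50-base transcript windows with Tcstv genes. Without these 7, a choice made after seeing the data, 12 of the 24 tested were called lower and the median log2 fold change was -3.91. None was called higher by edgeR, where 3.08% of all genes were, or by DESeq2, and 0 had an unadjusted p under 0.05 in that direction. In 21 of the 29, every Atxn7l3-/- library was below both WT libraries, as in 25.1% of all genes. Without WT replicate 1, WT replicate 2 or Atxn7l3-/- replicate 1, 0 were called lower by edgeR, with 18, 23 and 23 at an unadjusted p under 0.05.

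Tmem92 was at 7.32 and 5.23 CPM in WT and at 0.211, 0.214 and 0.0791 CPM in Atxn7l3-/- mESCs (log2 fold change -5.20 ± 0.58, SE, adjusted p = 0.0211, edgeR). Arg2, which encodes the mitochondrial arginase, was at 3.46 and 2.60 CPM against 0.180, 0.0715 and 0.158 CPM (-4.46 ± 0.58, adjusted p = 0.0211, edgeR). Gm20767, which shares 50-base windows with both Tcstv genes, was at 2.96 and 2.44 CPM against 0.0601, 0.0238 and 0.106 CPM (-5.37 ± 0.66, adjusted p = 0.0211, edgeR). Gm12794 was at 2.86 and 1.70 CPM against 0.0601, 0.119 and 0.0528 CPM (-4.80 ± 0.62, adjusted p = 0.0211, edgeR). Each of these 4 was more than 10 times higher in its lower WT line than in its highest Atxn7l3-/- line.

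The 4 genes of this list with the most RNA did not move in this way. Calcoco2, an autophagy receptor gene, was at 665 and 452 CPM in WT and at 565, 402 and 209 CPM in Atxn7l3-/- mESCs (log2 fold change -0.51 ± 0.39, SE, adjusted p = 0.411, edgeR). Pramel7, which encodes a pluripotency factor of the preimplantation embryo, was at 161 and 76.3 CPM against 154, 149 and 90.0 CPM (0.14 ± 0.36, adjusted p = 0.822, edgeR). Pramel6, its close relative, was at 183 and 98.3 CPM against 112, 134 and 18.9 CPM (-0.67 ± 0.68, adjusted p = 0.541, edgeR). Pramef8 was at 141 and 71.2 CPM against 56.3, 60.9 and 118 CPM (-0.43 ± 0.40, adjusted p = 0.494, edgeR). For each of them the groups overlapped.

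Of 7 known activators of the 2-cell-like state, 5 were tested, 2 were called lower, against 3.88% of all genes, and none higher (0 at an unadjusted p under 0.05 in edgeR and 0 called by DESeq2), with a median log2 fold change of -0.99. Tbx3, a T-box transcription factor, was at 460 and 343 CPM in WT and at 191, 175 and 177 CPM in Atxn7l3-/- mESCs (-1.15 ± 0.20, SE, adjusted p = 0.027, edgeR). Nelfa, a subunit of the negative elongation factor and a maternal driver of this state, was at 67.6 and 66.5 CPM against 30.2, 34.3 and 37.0 CPM (-0.99 ± 0.20, adjusted p = 0.0332, edgeR). Dppa2, which acts upstream of Dux, was at 61.0 and 50.6 CPM against 19.2, 32.3 and 8.26 CPM (-1.48 ± 0.48, adjusted p = 0.0947, edgeR). Its partner Dppa4 was at 52.2 and 49.8 CPM against 49.4, 42.1 and 42.5 CPM (-0.19 ± 0.20, adjusted p = 0.545, edgeR). Zscan5b was at 8.01 and 15.6 CPM against 18.4, 14.1 and 0.950 CPM (-0.08 ± 0.94, adjusted p = 0.964, edgeR). Duxf3, the Dux row of the table and the transcription factor gene at the head of the programme, had 8 and 5 counts in WT and 0, 0 and 2 in Atxn7l3-/- mESCs, too few to pass the filter. The groups of Tbx3, Nelfa, Dppa2, Dppa4 and Duxf3 did not overlap, and those of Zscan5b did. For Dppa4 the nearest libraries were at 49.8 CPM in WT and 49.4 CPM in Atxn7l3-/- mESCs. Of the 5 tested activators, 4 had every Atxn7l3-/- library below both WT libraries, as 25.1% of all genes had. A difference in size between these changes and those of the families was not tested. Without WT replicate 1, WT replicate 2 or Atxn7l3-/- replicate 1, no activator was called by edgeR, with 2, 3 and 3 at an unadjusted p under 0.05 and lower. With Y-linked reads required, which leaves Atxn7l3-/- replicate 3 alone against both WT lines, so that only the WT lines supply the spread, 4 were called lower.

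Of 24 repressors of the 2-cell programme, all tested, 1 (4.17%) was called lower and none higher in Atxn7l3-/- mESCs, near the 3.88% and 3.08% of all genes, with a median log2 fold change of -0.34 (9 lower and 1 higher at an unadjusted p under 0.05 in edgeR, 3 lower and 0 higher by DESeq2). Of all 17800 genes tested, 5309 had an unadjusted p under 0.05 in either direction (edgeR). DESeq2 called 3425 genes in either direction. In 13 of the 24, every Atxn7l3-/- library was below both WT libraries, against 25.1% of all genes. In 1 every Atxn7l3-/- library was above both, against 24.6%. The 1 was Trim28, the scaffold of the silencing complex recruited by KRAB zinc finger proteins, at 1677 and 2096 CPM in WT and at 912, 837 and 870 CPM in Atxn7l3-/- mESCs (-1.11 ± 0.20, SE, adjusted p = 0.0287, edgeR). Ncl, the nucleolar protein nucleolin, was at 2615 and 3384 CPM against 2399, 2249 and 1814 CPM (-0.48 ± 0.23, adjusted p = 0.211, edgeR). Rif1, which acts in replication timing and silencing, was at 694 and 844 CPM against 387, 614 and 501 CPM (-0.62 ± 0.24, adjusted p = 0.137, edgeR). Uhrf1, needed to keep DNA methylation, was at 265 and 482 CPM against 485, 269 and 391 CPM (0.03 ± 0.33, adjusted p = 0.961, edgeR). Only the groups of Uhrf1 among these 4 overlapped. The call of Trim28 was lost without WT replicate 1, WT replicate 2 or Atxn7l3-/- replicate 1, when no repressor was called.

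**Figure D4:**
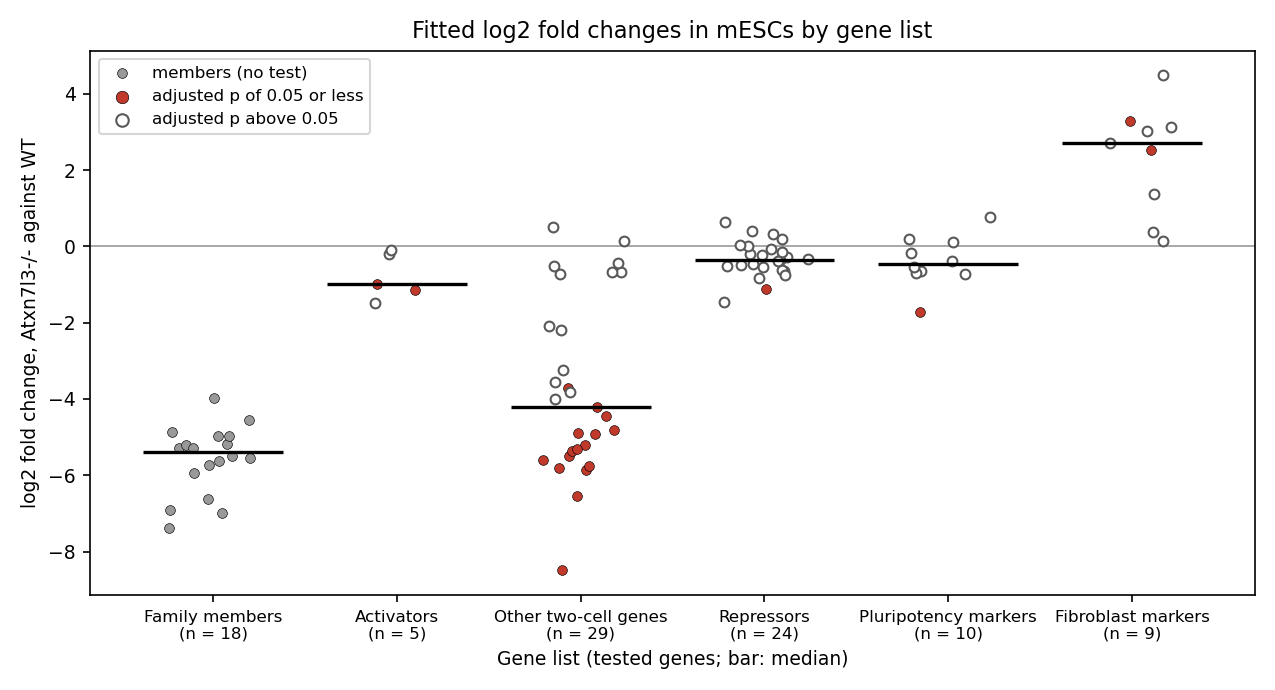
Fitted log2 fold changes, Atxn7l3-/- against WT mESCs, of the tested members and of the tested genes of 5 lists; red points have an adjusted p of 0.05 or less (edgeR), the members' grey points carry no test, and bars are medians. The members, chosen for being low, have a median of -5.40, the other 2-cell genes -4.21, the activators -0.99 and the repressors -0.34. The lists were chosen with earlier results of these data known.

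In MEFs these lists gave few calls, and the libraries labelled Atxn7l3-/- still held Atxn7l3 RNA. Of 5 other 2-cell genes tested there, 2 were called higher in MEFs labelled Atxn7l3-/- (5.01% of 15958 genes were called higher) and none lower (0 at an unadjusted p under 0.05 in edgeR, 0 by DESeq2). Arg2 was at 0.0375, 0.0558 and 0.0218 CPM in WT and at 0.854, 0.616 and 0.659 CPM in MEFs labelled Atxn7l3-/- (log2 fold change 4.14 ± 0.54, SE, adjusted p = 0.0131, edgeR). Ubtfl1, a gene of the preimplantation embryo, was at 0.0375, 0.112 and 0.0436 CPM against 0.277, 0.433 and 0.412 CPM (2.54 ± 0.59, adjusted p = 0.0451, edgeR). Both were under 1 CPM in every MEF library, and in both all 3 libraries labelled Atxn7l3-/- were above all WT libraries, as 20.0% of all genes were. Of these 2 calls, 0 were left without WT replicate 3 or without replicate 1 labelled Atxn7l3-/-, and 1 without WT replicate 1 or without replicate 2 or 3 labelled Atxn7l3-/-. Of 2 activators tested, Tbx3 was called lower (9.86, 17.4 and 20.7 CPM in WT against 3.69, 2.30 and 5.63 CPM, -2.04 ± 0.47, SE, adjusted p = 0.0443, edgeR), where 4.39% of all genes were, and this call was lost without any 1 of the libraries except replicate 3 labelled Atxn7l3-/-. Of 22 repressors tested, none was called in either direction (6 higher and 0 lower at an unadjusted p under 0.05 in edgeR). Of all 15958 genes tested, 5166 had an unadjusted p under 0.05 in either direction (edgeR). Of the 23 repressors listed, DESeq2, with its own filter, called 3 higher, namely Pcgf6, Rif1 and Lin28a, the last with 0, 0 and 0 counts in WT and 99, 12 and 2 in MEFs labelled Atxn7l3-/- and not tested by edgeR. The edgeR fit with the replicate number as a block called 1, Chaf1b, genes named after their values were seen. Over all genes and both directions, DESeq2 called 3965 in MEFs and the fit with the block 2232, so nothing is read from these few repressors.

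The summed level of fibroblast markers was higher in every Atxn7l3-/- mESC line than in both WT lines. The 10 markers summed to 26.3 and 109 CPM in WT and to 325, 451 and 331 CPM in Atxn7l3-/- mESCs. Of 9 tested, 2 were called higher, Col1a1 and Postn, against 3.08% of all genes. In 7 of 9, every Atxn7l3-/- line was above both WT lines, as in 24.6% of all genes. Dcn, a defining marker, was at a mean of 0.0430 CPM in WT and 0.190 CPM in Atxn7l3-/- mESCs. The trophectoderm list summed to 57.3 and 25.3 CPM in WT against 28.2, 24.5 and 12.7 CPM, and the primitive endoderm list to 37.0 and 20.1 CPM against 27.7, 22.2 and 14.3 CPM, and for both the groups overlapped. Of 6 trophectoderm genes tested, 5 were below both WT lines in every Atxn7l3-/- line, as 25.1% of all genes were. Their median log2 fold change was -1.49, and Cdx2 was called lower (-2.99 ± 0.71, SE, adjusted p = 0.0479, edgeR), as 3.88% of all genes were. Of 6 primitive endoderm genes tested, 1 was below and 1 above both WT lines in this way. Sox7 was called lower (-3.83 ± 0.86, SE, adjusted p = 0.0417, edgeR), as 3.88% of all genes were. The formative epiblast list summed to 315 and 394 CPM in WT against 222, 222 and 306 CPM, without overlap, and none of its 4 tested genes was called by edgeR (1 at an unadjusted p under 0.05). Dnmt3a and Dnmt3b, at means of 119 and 231 CPM in WT, made up most of that sum. Of the 4 tested, 1 was below both WT lines in every Atxn7l3-/- line, as 25.1% of all genes were. Otx2 had a higher mean in Atxn7l3-/- mESCs, at 4.84 against 1.80 CPM. The part of these shifts in the low family sums was not tested. The sum of the pluripotency markers was 6232, 5548 and 5773 CPM in Atxn7l3-/- mESCs, within the 5267 and 6456 CPM of the WT lines. Of these 10 markers, 3 were below and 1 above both WT lines in every Atxn7l3-/- line, against 25.1% and 24.6% of all genes. Their median log2 fold change was -0.45. The 1 above was Dppa5a, at means of 968 CPM in WT and 1646 CPM in Atxn7l3-/- mESCs (adjusted p = 0.119, edgeR). Nanog was at means of 886 and 545 CPM (adjusted p = 0.191, edgeR) and Klf4 at 239 and 165 CPM (adjusted p = 0.176, edgeR). Within that list, Tdgf1 was called lower, as 3.88% of all genes were, at 253 and 518 CPM in WT against 137, 120 and 97.7 CPM (-1.71 ± 0.31, SE, adjusted p = 0.0299, edgeR). Sox2 was at 255 and 301 CPM against 154, 212 and 171 CPM (-0.64 ± 0.21, adjusted p = 0.0954, edgeR). Atxn7l3-/- replicate 3, which like both WT lines has Y-linked reads, had 7 Zscan4, 9 Usp17l and 3 Tcstv counts and none of Tdpoz or Zfp352, no more than the Zscan4, Usp17l, Tdpoz and Zfp352 counts of the other two.

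**Figure D5:**
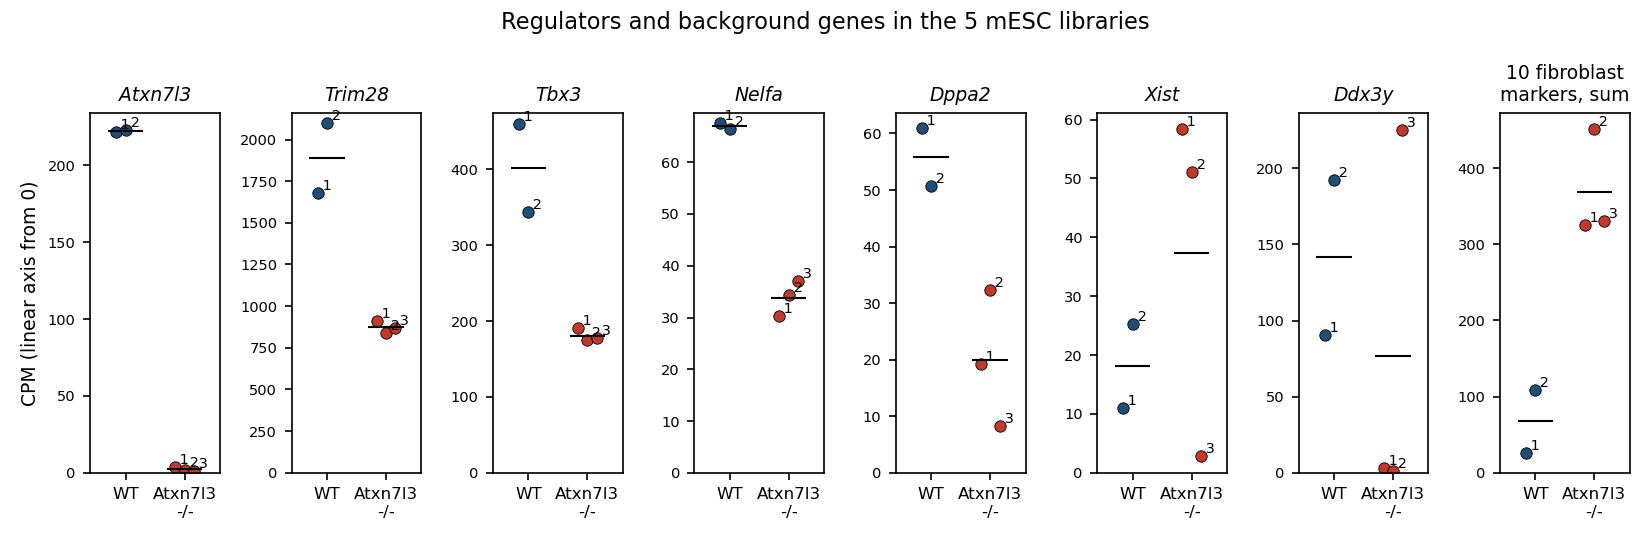
CPM (linear axes from 0) in the 2 WT and 3 Atxn7l3-/- mESC libraries, numbered by replicate with bars at group means, of the deleted gene, a repressor, 3 activators, an X-linked and a Y-linked gene, and of the summed fibroblast markers. Atxn7l3, Trim28, Tbx3, Nelfa and Dppa2 are lower in every Atxn7l3-/- line, and Xist and Ddx3y separate replicates 1 and 2 from replicate 3.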

How the data were processed

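Poly(A) RNA of mESC lines and MEF cultures was sequenced, and the authors deposited, per cell type, a table of raw read counts per gene together with normalized signal: the counts divided by size factors, and these per kb of median transcript length. The submitters' processing notes name cutadapt 1.10, STAR 2.5.3a, HTSeq 0.6.1p1 and DESeq2 1.16.1 and the mm10 build, without their roles. Strand use, annotation and the handling of reads that match several places are not given in the sources used here. Each replicate is a line or culture of its own embryo.

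Raw counts were taken as deposited and fitted per cell type with edgeR 4.0.16 (R 4.3.3: filterByExpr, TMM, quasi-likelihood test, Benjamini-Hochberg adjustment over all genes tested, 17800 in mESCs and 15958 in MEFs). A gene was called at an adjusted p of 0.05 or less. Family sums replaced their member rows in a second fit. Normalized signal per kb, as the authors deposited it, served only to order members within WT mESCs. Count ratios have exact binomial 95% intervals, and folds against groups without a count used a floor of 3 counts over the group. Transcript windows of 50 bases and primers were searched on both strands in GENCODE M21 transcripts, and promoters came from RefSeq. The script was tested on simulated counts. The named genes were the family sums, the 3 members of each family with the most counts, Atxn7l3, the 4 genes of each 2-cell list with the highest mean CPM in mESCs, up to 4 with the smallest p among those called per cell type, and the 3 nearest genes in profile for families with a mean of at least 1 CPM. The members, lists and tests were chosen with earlier results of these data known. Alternatives were RLE scaling, library totals alone, no filter, DESeq2 1.42.0, a replicate block, each library left out, protein-coding members only and the study's selection of genes (at least 2-fold and a median over 10 normalized reads per kb); a fit of libraries with Y-linked reads, a Tdpoz sum with 2 more rows and the other 2-cell genes without those that share windows with a member were chosen after seeing the data. Replicates of MEFs with the same number deviated together (correlation of deviations across genes 0.473, 0.161 and 0.240), which meets the rule used here for pairing, though no label gives one; the fits without the block remained the main ones, and the block is an alternative. Depth is given as the range of library totals.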

Additional observations from a re-analysis of the deposited data

Results flagged for a closer look

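In 4 named genes of the 2-cell lists that were tested in both cell types, the genotype effect differed between MEFs and mESCs. The fit had an interaction term over 20063 genes (edgeR, Benjamini-Hochberg), and the MEF label rests on libraries that still held Atxn7l3 RNA. The named genes Tbx3, Nelfa, Pramef8, Trim28 and Uhrf1, also tested in both, did not differ at an adjusted p of 0.05 (edgeR). The share of all 20063 genes that differed is not given here, so nothing is read from the number of these genes. For Arg2 the log2 fold change was higher in MEFs by 8.67 (adjusted p = 0.000621), lower in all 3 Atxn7l3-/- mESC lines and higher in all 3 MEF cultures labelled Atxn7l3-/-. For Ubtfl1 the difference was 5.85 (adjusted p = 0.024), with the same directions in every library, at under 1 CPM in all of them. For Rif1 it was 2.09 (adjusted p = 0.0323) and for Ncl 1.37 (adjusted p = 0.0476), neither of which was called within mESCs or within MEFs by edgeR. The part of cell type markers, depth and sex-linked differences between the libraries in these 4 values was not tested.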

How the results depend on the processing

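Among the fits listed in the methods, none turned the direction of a family sum in mESCs. Leaving out 1 library at a time gave log2 fold changes of -6.65 to -5.79 for Zscan4, -6.25 to -5.26 for Tcstv, -5.87 to -4.96 for Usp17l, -6.17 to -4.48 for Tdpoz and -6.21 to -4.32 for Zfp352; a lone WT line is then assumed to vary like the Atxn7l3-/- lines. Fits of libraries with Y-linked reads only were chosen after seeing the data and have the spread from the WT lines alone. In them Zscan4 was at -6.67, Usp17l at -5.95, Tcstv at -4.77, Tdpoz at -8.74 and Zfp352 at -8.62, and the cause was not tested. Counts of called genes were less stable. In mESCs, 1238 genes were called, 2995 without the filter, 3425 by DESeq2, 3890 with Y-linked reads only, and 0 to 2242 with 1 library left out: none without WT replicate 1 or 2 by edgeR (2932 and 2994 at an unadjusted p under 0.05), 3 without Atxn7l3-/- replicate 1 and 2242 without replicate 2. In MEFs, 1501 were called, 3965 by DESeq2 and 197 to 2038 with 1 library left out. The study's selection gave 833 calls in mESCs and 1213 in MEFs. Of the lists, activators called lower in mESCs numbered 0 to 3 with 1 library left out and 4 with Y-linked reads only; other 2-cell genes 0 to 19, and 25 without the filter; repressors called lower 0 to 2, 3 without the filter, 2 with the replicate block, 3 by DESeq2 and 2 with Y-linked reads only, where 1 repressor was called higher. In MEFs, activators called lower numbered 0 to 1 and other 2-cell genes called higher 0 to 2 with 1 library left out, the latter 1 without the filter, and repressors called higher 2 without the filter, 1 with the replicate block and 3 by DESeq2. The mESC replicate numbers share no line (correlation of deviations 0.00777 and -0.172 for the 2 pairs), and the replicate block gave 1435 calls there and 2232 in MEFs; it moved no other count of the lists by over 1.5 times. For the MEF family sums no alternative gives a value, since no fold was computed. With 19 to 44 counts of the 5 families in an Atxn7l3-/- mESC library and 0 to 8 in a MEF library, values of single members there rest on a few reads.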
